A study of Mus musculus with 6 samples.

Results

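Acyl-CoA synthetases and acyl-CoA thioesterases were described across brown adipose tissue with and without deletion of Bscl2, the gene of seipin, an endoplasmic reticulum protein of lipid droplet formation. The members were the 9 rows of the deposited expression table whose gene symbol was Acsl1, Acsl3, Acsl4, Acsl5, Acot1, Acot2, Acot4, Acot11 or Acot13, chosen by name from 12966 genes. They comprise 4 synthetases and 5 thioesterases. RNA came from 6 libraries of brown fat from male C57BL/6J mice aged 10 weeks. The 3 control libraries (Ctrl) came from Bscl2f/f mice, in which both copies of the gene are floxed but no Cre is present. The 3 BKO libraries came from Bscl2f/f Ucp1Cre mice, in which the Ucp1 promoter drives Cre in brown adipocytes and Bscl2 stays intact in cells where that promoter is silent. No Cre-only animals are among the samples, and the Cre and the loss of Bscl2 therefore cannot be told apart. The labels do not say whether the libraries came from separate animals or pools, so the p-values measure the spread between libraries, which may be technical. Levels are FPKM, read fragments scaled to transcript length and library size, as the authors deposited them.

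Before a fatty acid can be stored, oxidized or built into a membrane, it must be joined to coenzyme A by an acyl-CoA synthetase. The long-chain enzymes of the Acsl family do this at the outer mitochondrial membrane, the endoplasmic reticulum and other membranes. Thioesterases of the Acot family run the opposite step and release the free fatty acid and coenzyme A. In brown fat, activated fatty acids feed mitochondrial oxidation, while free fatty acids activate uncoupling protein 1, so both families act on the fuel of heat production. Acot1 to Acot6 are closely related genes, several of which are known targets of the lipid-sensing receptor PPAR alpha, and Acot11 and Acot13 belong to another, hot-dog fold type of thioesterase.

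The sequences behind 2 of the members are shown first because Acot1 and Acot2 are so alike that reads can match both genes. The stretch below runs from position 897 to 1189 of the Acot1 transcript ENSMUST00000168120 and from 1041 to 1333 of the Acot2 transcript ENSMUST00000021649 (GENCODE vM21, GRCm38, 5′ to 3′), inside the coding part of both. Capitals mark the 5 bases that differ, and the 273 bases between them are identical.
Acot1: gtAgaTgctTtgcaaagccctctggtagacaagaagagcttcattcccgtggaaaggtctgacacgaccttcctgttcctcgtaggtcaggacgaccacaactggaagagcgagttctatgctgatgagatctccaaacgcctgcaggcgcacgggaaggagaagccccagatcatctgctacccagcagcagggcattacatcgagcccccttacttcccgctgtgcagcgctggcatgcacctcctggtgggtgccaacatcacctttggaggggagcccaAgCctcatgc
Acot2: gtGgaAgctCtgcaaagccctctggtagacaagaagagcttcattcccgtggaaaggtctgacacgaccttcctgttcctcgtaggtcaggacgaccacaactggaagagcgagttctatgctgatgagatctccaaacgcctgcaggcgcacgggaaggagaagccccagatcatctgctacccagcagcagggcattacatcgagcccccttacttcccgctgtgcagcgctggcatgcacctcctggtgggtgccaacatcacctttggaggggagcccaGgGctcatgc
Of all 50-base words of the Acot1 transcript, 23.9% also occur in transcripts of Acot2, and 33.2% in transcripts of any other gene. For Acot2, 24.5% of its 50-base words occur in Acot1. How the authors' counting assigned reads from such stretches is not given in the sources used here, so the levels of Acot1 and Acot2 are uncertain to that extent. Acsl1, Acsl4 and Acot13 shared 0 of their 50-base words with another gene. Acot4 shared 14.4% with any other gene, with Acot1, Acot2, Acot3, Acot5 and Acot6 among them. Acsl3 shared 4.05% with Utp14b, Acsl5 5.39% with Zdhhc6 and Acot11 19% with Fam151a. The largest overlap of Acot4 was 11.2%, with 4732463B04Rik, an annotated antisense RNA. The library kit named in the labels does not mark strand, so reads of overlapping genes cannot be told apart there.

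Acot2, Acot1 and Acot4 lie next to each other in this order on chromosome 12, on the same strand, and their start regions are shown because 2 of the 3 neighbours were low in every BKO library. Each sequence is the 250 bases before the gene start (RefSeq, GRCm38.p6, 5′ to 3′). Capitals mark matches, on either strand, to CCAAT, to AGGTCA, the core site of PPAR and related receptors, and to CAAAGGTCA, which contains that core.
Acot2, chr12:83987611-83987860, + strand: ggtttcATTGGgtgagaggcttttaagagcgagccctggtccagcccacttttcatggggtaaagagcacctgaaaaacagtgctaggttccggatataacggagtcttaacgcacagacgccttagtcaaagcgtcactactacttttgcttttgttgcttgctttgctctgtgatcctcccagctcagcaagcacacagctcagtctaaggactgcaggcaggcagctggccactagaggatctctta
Acot1, chr12:84009252-84009501, + strand: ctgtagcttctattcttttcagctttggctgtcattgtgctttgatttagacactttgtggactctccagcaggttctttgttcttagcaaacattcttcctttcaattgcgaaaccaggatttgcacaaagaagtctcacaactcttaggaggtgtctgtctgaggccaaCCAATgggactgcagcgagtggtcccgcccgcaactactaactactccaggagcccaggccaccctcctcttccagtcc
Acot4, chr12:84038129-84038378, + strand: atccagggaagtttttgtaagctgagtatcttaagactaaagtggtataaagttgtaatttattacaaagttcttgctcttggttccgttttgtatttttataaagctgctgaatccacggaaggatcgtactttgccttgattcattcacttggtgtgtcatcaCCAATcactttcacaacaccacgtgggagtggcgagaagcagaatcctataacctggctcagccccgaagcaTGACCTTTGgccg
The Acot4 window holds TGACCTTTG, the opposite-strand form of CAAAGGTCA, 13 to 5 bases before the start. This 9-base motif occurs in 0.426% of 32851 such windows of the genome, and AGGTCA in 14%. CCAAT, on either strand, occurs in all 3 windows shown and in 33.8% of all windows. It is not particular to these neighbours, since windows of Acsl1, Acsl3, Acsl5 and Acot11 hold it too. The direct repeat of AGGTCA with 1 base between its copies was found in none of the 3 and in 0.0335% of all windows. A match describes the letters only, and no binding was measured in these samples.

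Bscl2 itself stood at 116, 104 and 106 FPKM in the Ctrl libraries and at 16.5, 16.9 and 18.9 FPKM in the BKO libraries, in the direction of the labels (limma with Benjamini-Hochberg adjusted p = 3.95e-05). All 14 brown adipocyte markers were listed and tested, and 0 passed at a limma adjusted p under 0.05. Of the 14, 8 had a positive and 6 a negative log2 change (median 0.05, against 0.01 over all genes). In 2 of them every BKO library lay above every Ctrl library (9.06% of all genes), and in 1 below (6.82%). Ucp1 stood between 2484 and 3498 FPKM over the 6 libraries. Macrophage markers separated the groups. Of 13 tested markers 4 were higher at a limma adjusted p under 0.05, which 0.167% of all genes passed in either direction. Without overlap, 11 lay higher in all BKO than in all Ctrl libraries, against 9.06% of all genes. Gpnmb, counted in the 4 and in the 11, passed the filter on low values only through the BKO group. Its means were 0.255 FPKM in Ctrl against 2.24 FPKM in BKO. The 15 listed macrophage markers, 2 of them untested, summed to 61.3 to 99.0 FPKM in Ctrl against 185 to 249 FPKM in BKO, and none was at 0 in any library. Skeletal muscle markers varied within both groups, from a summed 164 FPKM in Ctrl-2 to 758 FPKM in Ctrl-1. The sum of all values was 2808874 FPKM in BKO-3 against 1119228 to 1617963 in the other libraries. The highest row, a mitochondrial tRNA (mt-Ty or mt-Tc), made up 30.68% of it in BKO-3 and 16.35% to 26.61% elsewhere. Without that row the sum was 1946999 FPKM in BKO-3 against 936237 to 1187496 elsewhere. The median gene stood at 6.00 FPKM in BKO-3 and at 5.64 to 6.10 FPKM elsewhere.

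None of the 9 members passed the test over all 11397 genes (limma on log2(FPKM + 1), Benjamini-Hochberg adjusted p under 0.05), a threshold that 0.167% of all tested genes passed. Limma was the only tool run across genes. At an unadjusted p under 0.05 there were 4 members, Acot1, Acot4, Acsl4 and Acsl5, against 10.2% of all genes. In 3 members, Acot1, Acot4 and Acsl5, every BKO library lay below every Ctrl library, as in 6.82% of all genes. In 1 member, Acsl4, every BKO library lay above, as in 9.06% of all genes. The median log2 change of the 9 members was -0.22, against 0.01 over all genes tested. All 9 passed the filter on low values. In bulk tissue, fewer cells of a type and less RNA per cell cannot be told apart.

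**Figure D1:**
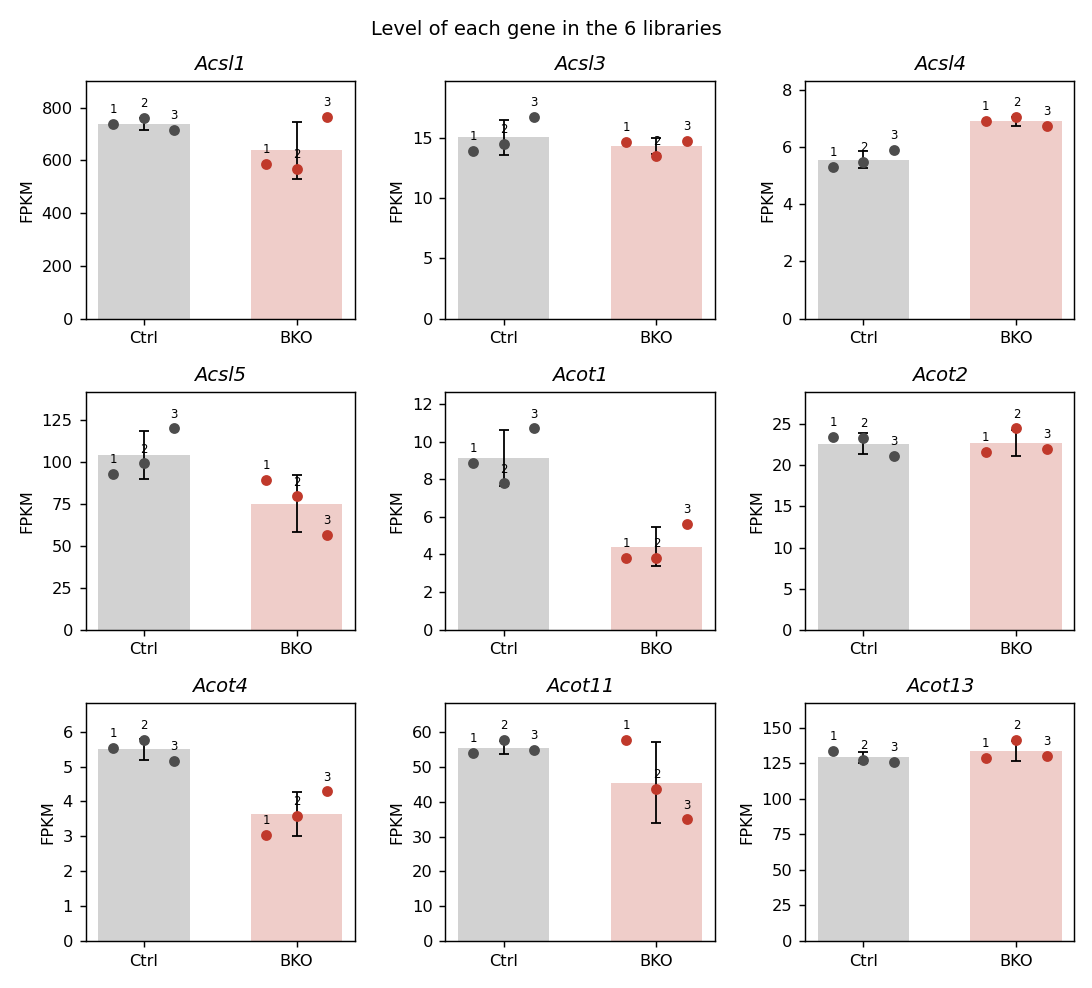
FPKM of each gene in the 6 libraries, with points numbered by replicate, bars at the group mean and error bars of 1 SD (n = 3 per group). All 3 BKO points lie below all 3 Ctrl points for Acot1, Acot4 and Acsl5 and above them for Acsl4, and the BKO points of Acsl1 and Acot11 spread more widely than the Ctrl points.

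Acsl1, the main synthetase of adipocytes, which directs fatty acids to oxidation and storage, was the most abundant member in both groups. In replicates 1 to 3 it stood at 739, 759.7 and 714 FPKM in Ctrl and at 586, 567 and 763 FPKM in BKO, and values below follow the same order. BKO-1 and BKO-2 lay below all Ctrl libraries and BKO-3 lay above them, so the groups overlapped. Its log2 change of -0.22 (SE 0.12, 95% interval -0.50 to 0.06, limma with Benjamini-Hochberg adjusted p = 0.595) did not pass. It was -0.14 without BKO-2 (limma adjusted p = 0.862), -0.16 without BKO-1 (0.819) and -0.35 without BKO-3 (0.142). Without BKO-3 the groups no longer overlapped, with BKO lower, as in 15.4% of all genes.

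Acsl5, a synthetase of the endoplasmic reticulum and mitochondria, was the next most abundant of the 4. Its levels were 92.9, 99.1 and 120 FPKM in Ctrl against 89.3, 79.4 and 56.4 FPKM in BKO. All BKO values were lower, but the gap between Ctrl-1 and BKO-1 was small beside the spread within either group. The mean went from 104 ± 14.1 to 75.0 ± 16.8 FPKM (SD, n = 3 per group), 72.2% of the Ctrl level. The log2 change of -0.48 (SE 0.18, 95% interval -0.89 to -0.07) did not pass over all genes (limma adjusted p = 0.422). BKO-3 had the lowest Acsl5 and the highest Acsl1 of its group, and without BKO-3 the log2 change of Acsl5 was -0.29. Zdhhc6, which overlaps Acsl5, stood at 15.3, 14.1 and 15.2 FPKM in Ctrl against 12.7, 13.7 and 12.9 FPKM in BKO.

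Acsl4, a synthetase that prefers arachidonic acid and other polyunsaturated fatty acids, was the single member higher in every BKO library. It stood at 5.31, 5.49 and 5.89 FPKM in Ctrl and at 6.91, 7.05 and 6.75 FPKM in BKO. The ratio of means was 1.24, and the values within each group lay close together. Its log2 change was 0.27 (SE 0.08, 95% interval 0.09 to 0.45), with an adjusted p = 0.299 (limma, Benjamini-Hochberg), and 0.17 with a pseudocount of 5. Macrophages and fibroblasts also express Acsl4. Macrophage markers were higher in BKO as given above. All 10 tested preadipocyte and fibroblast markers had a positive log2 change, while 48.4% of all genes had a negative one. Of the 10, 3 lay above all Ctrl libraries (9.06% of all genes). The 10 summed to 355 to 466 FPKM in Ctrl against 467 to 551 FPKM in BKO. None of these 10 was at 0. Their part in the Acsl4 values was not tested.

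Acsl3, a synthetase of the endoplasmic reticulum and of nascent lipid droplets, was close in the groups. It stood at 13.9, 14.5 and 16.7 FPKM in Ctrl and at 14.7, 13.5 and 14.8 FPKM in BKO. The log2 change was -0.06 (95% interval -0.27 to 0.14, limma), and without Ctrl-3 it had the opposite sign, at 0.0085. Utp14b, which overlaps Acsl3, stood at 0.981 to 1.63 FPKM over the 6 libraries.

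Among the thioesterases, Acot1, the cytosolic enzyme for long-chain acyl-CoA, had the largest log2 change. Its levels were 8.87, 7.78 and 10.7 FPKM in Ctrl against 3.80, 3.83 and 5.64 FPKM in BKO. The lowest Ctrl library lay above the highest BKO library, and the mean went from 9.11 ± 1.48 to 4.42 ± 1.05 FPKM (SD, n = 3 per group), 48.5% of the Ctrl level. The log2 change was -0.91 (SE 0.16, 95% interval -1.28 to -0.53), the 47th smallest p of 11397, yet the adjusted p was 0.155 (limma, Benjamini-Hochberg). It stayed between -1.06 and -0.80 when any 1 library was left out, with adjusted p from 0.0579 without BKO-3 to 0.413 without BKO-2. With a pseudocount of 5 in place of 1, which shrinks the changes of low genes, it was -0.58 (adjusted p = 0.162, limma). The exact two-sided permutation p was 0.1 for Acot1, Acot4, Acsl5 and Acsl4, the smallest that 3 against 3 libraries allow.

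Acot2, the mitochondrial neighbour and near-copy of Acot1, was close between the groups. It stood at 23.4, 23.3 and 21.1 FPKM in Ctrl and at 21.6, 24.5 and 21.95 FPKM in BKO. The means were 22.6 ± 1.29 and 22.7 ± 1.55 FPKM (SD, n = 3 per group), and the groups overlapped. The log2 change was 0.0037 with a 95% interval of -0.18 to 0.19 (limma), which does not reach the change of Acot1. Read within each library, where any scaling cancels, the ratio of Acot1 to Acot2 was 0.378, 0.334 and 0.506 in Ctrl and 0.175, 0.156 and 0.257 in BKO. Every BKO ratio lay below every Ctrl ratio. Reads assigned to the wrong copy would move these ratios, and their number is unknown.

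Acot4, the peroxisomal enzyme next to Acot1, which cleaves succinyl-CoA in the mouse, was lower in every BKO library. Its levels were 5.54, 5.78 and 5.17 FPKM in Ctrl against 3.05, 3.60 and 4.29 FPKM in BKO. The 2 groups were apart, with BKO-3 nearest to the Ctrl libraries, and the BKO mean was 66.3% of the Ctrl mean. Its log2 change was -0.49 (SE 0.11, 95% interval -0.76 to -0.22) at an adjusted p = 0.247 (limma), and -0.28 with a pseudocount of 5. The antisense RNA 4732463B04Rik, which overlaps Acot4, was low in the same libraries, at 3.13, 2.82 and 2.51 FPKM in Ctrl against 1.81, 1.85 and 1.99 FPKM in BKO (log2 change -0.40, limma adjusted p = 0.248). Of the 50-base words of Acot4, 11.2% also occur in this RNA. For reads from that part, whether they came from Acot4 or from the antisense RNA cannot be told from these values. The ratio of Acot4 to Acot2 was 0.236, 0.248 and 0.245 in Ctrl and 0.141, 0.147 and 0.195 in BKO. Acot4 also shares 50-base words with Acot2, and how such reads were assigned is unknown.

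**Figure D2:**
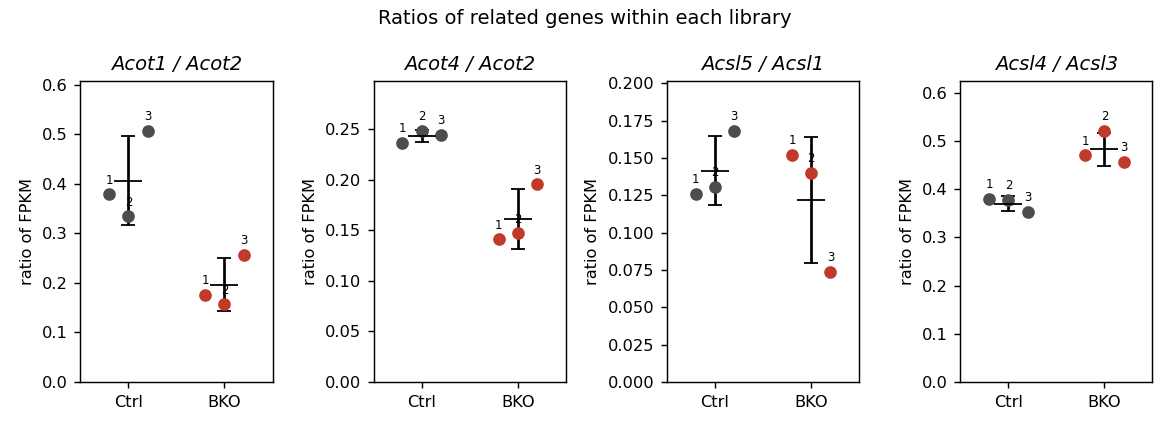
Ratios of FPKM of related genes within each of the 6 libraries, with points numbered by replicate and the mean and 1 SD in black (n = 3 per group). The ratios of Acot1 and Acot4 to Acot2 are lower in all 3 BKO libraries, Acsl4 to Acsl3 is higher in all 3, and Acsl5 to Acsl1 overlaps, with BKO-3 lowest at 0.0739.

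Acot11, known as brown fat-inducible thioesterase or Them1, varied within the BKO group. It stood at 54.1, 57.7 and 54.9 FPKM in Ctrl and at 57.9, 43.6 and 34.9 FPKM in BKO. BKO-1 was the highest of all 6 libraries and BKO-3 the lowest, so the BKO coefficient of variation was 25.5% against 3.41% in Ctrl. Its log2 change was -0.31 (95% interval -0.70 to 0.07, limma adjusted p = 0.580), and it was -0.14 without BKO-3 and -0.50 without BKO-1. Without BKO-1 the 2 groups did not overlap, with BKO lower, as in 9.91% of all genes. The order of the BKO libraries, BKO-1 above BKO-2 above BKO-3, was the same for Acsl5 and the reverse of that for Acot4. Fam151a, which shares 50-base words with Acot11 as given above, is not listed. Its part in the Acot11 values therefore cannot be told.

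Acot13, also called Them2, a thioesterase found at mitochondria, was the most abundant of the 5. It stood at 134, 127 and 126 FPKM in Ctrl and at 129, 142 and 130.2 FPKM in BKO. The log2 change was 0.05 (95% interval -0.11 to 0.21, limma), and the groups overlapped through Ctrl-1, the single Ctrl library above BKO-1 and BKO-3. Without Ctrl-1, 2 members were higher in all BKO libraries, Acsl4 and Acot13, as were 18.2% of all genes.

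**Figure D3:**
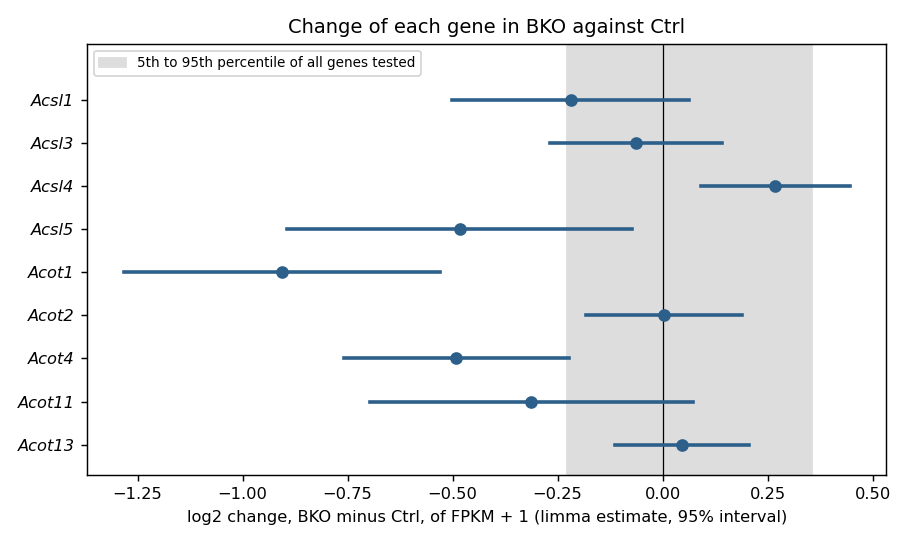
Log2 change of FPKM + 1 from Ctrl to BKO for each gene, with its 95% interval from limma, and a grey band from the 5th to the 95th percentile of all tested genes (-0.23 to 0.36). Acot1, Acot4, Acsl5 and Acot11 lie left of the band, and the interval of Acot2 stays inside it.

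FPKM is scaled to transcript length, so levels can be ranked between genes. In Ctrl the order was Acsl1, Acot13, Acsl5, Acot11, Acot2, Acsl3, Acot1, Acsl4 and Acot4, and each gene's lowest library lay above the next gene's highest, except that Acsl4 and Acot4 overlapped. In BKO Acot1 stood below Acsl4, and Acsl5 overlapped Acot11 and Acot1 overlapped Acot4. The summed level of the 4 synthetases was 851, 879 and 856 FPKM in Ctrl against 697, 667 and 841 FPKM in BKO, lower in every BKO library. Acsl1 made up 85.5% ± 1.90 of that sum in Ctrl and 86.6% ± 3.59 in BKO (SD, n = 3 per group). Acsl4 made up 0.645% ± 0.0372 and 0.950% ± 0.132, and its share was higher in every BKO library. The 5 thioesterases summed to 226, 222 and 218 FPKM in Ctrl and to 215, 217 and 197 FPKM in BKO. Acot1 made up 4.11% ± 0.721 of this sum in Ctrl and 2.13% ± 0.633 in BKO. Acot13 made up 58.2% ± 0.974 and 63.7% ± 3.40.

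The remaining genes of acyl-CoA metabolism were taken from 6 lists, and 0 of their tested members passed over all genes in either direction. Counts of genes without overlap in these lists stand beside 9.06% of all genes higher and 6.82% lower in every BKO library. Counts of negative log2 changes in the lists stand beside 48.4% of all genes. Of 21 other acyl-CoA synthetases 13 were listed and 10 tested. Of the 10, 9 had a negative log2 change, against 48.4% of all genes, and 2 lay below all Ctrl libraries. The median of the 10 was -0.12 against 0.01 over all genes. Acss2, which makes acetyl-CoA from acetate in the cytosol, stood at 128, 142 and 99.6 FPKM in Ctrl and at 94.2, 63.0 and 55.4 FPKM in BKO. The groups of Acss2 did not overlap, and its log2 change was -0.81 (SE 0.21, limma adjusted p = 0.274). Slc27a2, a very-long-chain acyl-CoA synthetase and fatty acid transporter, stood at 161, 176 and 177 FPKM in Ctrl and at 148, 152 and 193 FPKM in BKO, with overlap. Of 16 other thioesterases 10 were listed and 8 tested, with a median of -0.01, and 5 of the 8 had a negative log2 change. Of the 8, 2 lay above and 2 below all Ctrl libraries. Among them Acot9, a mitochondrial thioesterase, stood at 25.8, 24.6 and 26.2 FPKM in Ctrl and at 28.6, 31.3 and 27.9 FPKM in BKO, higher in every BKO library, but with an adjusted p = 0.438 (limma). Hibch, a hydrolase of valine breakdown, was the most abundant of that list, at 176 ± 3.87 FPKM in Ctrl against 168 ± 3.83 FPKM in BKO (SD, n = 3 per group). Hibch was lower in every BKO library, with an adjusted p = 0.775 (limma). Acot6, in the same chromosome 12 cluster as Acot1, stood at 1.47 to 1.81 FPKM in Ctrl against 1.35 to 2.03 FPKM in BKO. Acot3 and Acot5 are not listed, so their levels are unknown.

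Genes that make coenzyme A or bind acyl-CoA had median log2 changes of 0.02 and 0.0041, beside 0.01 over all genes. Of 14 tested coenzyme A genes 6, and of 6 acyl-CoA binding genes 3, had a negative log2 change. Of the 14, 3 lay above and 1 below all Ctrl libraries. Pank1, a pantothenate kinase that starts coenzyme A synthesis, stood at 150.3 ± 4.75 FPKM in Ctrl against 143 ± 13.6 FPKM in BKO, and the coenzyme A carrier Slc25a42 at 116 ± 17.9 and 115 ± 21.0 FPKM (SD, n = 3 per group). Coasy and Pank3, picked once their values were known, went in opposite directions. Coasy, which completes coenzyme A, stood at 50.9, 51.8 and 51.1 FPKM in Ctrl and at 68.9, 67.7 and 54.8 FPKM in BKO (limma adjusted p = 0.362). Pank3, another pantothenate kinase, stood at 31.1, 28.1 and 32.0 FPKM in Ctrl and at 23.0, 20.2 and 26.2 FPKM in BKO (limma adjusted p = 0.289). The 6 genes of the acyl-CoA binding list were led by Dbi, the acyl-CoA binding protein, at 2414 ± 145 and 2390.2 ± 295 FPKM, and by Scp2, the sterol carrier protein, at 469 ± 3.41 and 508 ± 18.9 FPKM.

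The carnitine shuttle moves activated fatty acids into mitochondria. Of its 7 tested genes 6 had a negative log2 change, against 48.4% of all genes (median -0.10, against 0.01 over all genes). In the shuttle, 1 gene lay above and 2 below all Ctrl libraries. Cpt1b, its entry enzyme in brown fat, stood at 364 ± 8.36 FPKM in Ctrl against 341 ± 27.2 FPKM in BKO, and the carrier Slc25a20 at 276 ± 4.59 and 256 ± 19.98 FPKM (SD, n = 3 per group). Crat, carnitine acetyltransferase, and Cpt1a, the liver-type entry enzyme, were picked once their values were known. Crat measured 284, 276 and 267 FPKM in Ctrl and at 213, 218 and 245 FPKM in BKO, with no overlap (limma adjusted p = 0.274). Cpt1a measured 4.36, 4.33 and 3.005 FPKM in Ctrl and at 5.97, 5.41 and 5.48 FPKM in BKO, again with no overlap (limma adjusted p = 0.320). Acot1 is a PPAR target in other tissues, and 15 further PPAR target genes were read beside it. Of these, 10 had a negative log2 change, 2 lay above and 2 below all Ctrl libraries, and the median log2 change was -0.07. The most abundant were Fabp4, a fatty acid carrier, at 10925 ± 413 and 11400 ± 947 FPKM, and Lpl, lipoprotein lipase, at 1067 ± 209 and 1011 ± 161 FPKM, both with overlapping groups.

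**Figure D4:**
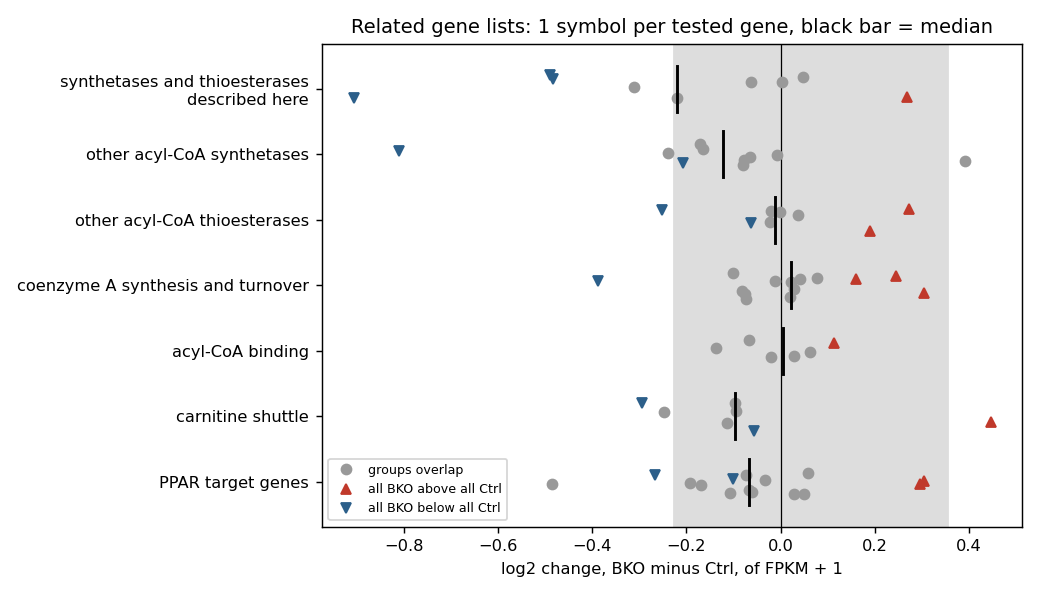
Log2 change of FPKM + 1 from Ctrl to BKO for each tested gene of the 9 members and 6 related lists, with the list median as a black bar and the 5th to 95th percentile of all tested genes in grey. Triangles mark genes whose groups do not overlap, 3 lower and 1 higher among the 9. The median of the 9 is -0.22, and the medians of the 6 related lists lie between -0.12 and 0.02.

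Over the 6 libraries, the level of Acsl1 on the log2 scale was most like that of Gm9853 (Pearson r = 0.999), Eps15, an endocytic adaptor (0.995), and Fam120a (0.992), among 4642 genes averaging 10 FPKM or more. Gm9853 stood at 29.0, 30.6 and 27.6 FPKM in Ctrl against 20.1, 19.0 and 29.9 FPKM in BKO. BKO-3 lay with the Ctrl libraries as it did for Acsl1, which follows from picking Gm9853 by its correlation with Acsl1. The level of Acot13 was most like that of Scnm1 (0.991), Cox4i1, a subunit of cytochrome c oxidase (0.986), and the ribosomal protein gene Rps2 (0.986). All pairs share the same 6 libraries, and r exceeded 0.9 with Acsl1 for 2.13% and with Acot13 for 2.56% of the genes compared.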

How the data were processed

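Total RNA of brown adipose tissue was extracted with Trizol and made into libraries with a TruSeq RNA kit, per the labels' protocols. CASAVA 1.8, TopHat2 2.0.12, Cufflinks 2.2.1 and the build NCBIM37 are named, per the submitters' processing notes. Neither their options nor the annotation is given in the sources used here. What the authors deposited is FPKM per gene and library, not counts, so read depth is unknown and no counting interval is given. Each column was tied to its sample through the label descriptions, which call Ctrl MT and BKO WT.

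Values were analysed as log2(FPKM + 1) for the 11397 genes averaging 1 FPKM or more, with limma 3.58.1 (R 4.3.3, trended empirical Bayes, no covariate, Benjamini-Hochberg adjustment over all genes, threshold 0.05). A log2 change on this scale understates the change of low genes. Percentages of the Ctrl level are ratios of mean FPKM, while shares of a summed level and ratios between genes were taken within each library and not tested. No value of BKO-3 lies between 0 and 0.486 FPKM, so genes low in that library may be unlisted. On simulated data for this comparison with 11397 genes, 200 genes averaging 5 FPKM or more were changed 2-fold or 4-fold in FPKM + 1. Of these, 92% of 2-fold and 98% of 4-fold changes were recovered, with 11 false calls. Recovery was not simulated with fewer changed genes or for genes below 5 FPKM, such as Acot4 (mean 4.57 FPKM). These rates therefore do not give the recovery for a single member. The simulated noise was independent between genes.

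The members and all lists were chosen with earlier results of these data known. The text names all members, Bscl2, the 2 most abundant genes of each related list (none passed), and for the most abundant synthetase and thioesterase the 3 genes most correlated with it. Ucp1, Gpnmb, mt-Ty, mt-Tc, Acot6, Coasy, Pank3, Crat, Cpt1a and the overlapping genes fall outside that rule. Sequences came from GENCODE vM21 and RefSeq, both on GRCm38, and serve to describe the genes and not to place the deposited values. Alternatives changed the pseudocount, the filter, the scaling or the empirical Bayes variant, weighted the libraries, added the replicate number or a muscle score to the fit, or left out each library. Counts of members without overlap when 1 library is left out were added after seeing the data.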

Additional observations from a re-analysis of the deposited data

How the results depend on the processing

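Across 17 alternatives, the log2 changes of Acsl1, Acsl4, Acsl5, Acot1, Acot4, Acot11 and Acot13 kept their direction wherever they were tested, and Bscl2 passed the test in all 17. Acot4 was left untested where a mean of at least 5 FPKM was required. Acsl3 reversed without Ctrl-3 (0.0085) and ran from -0.11 to 0.0085 with 1 library left out. Acot2, whose change was near 0, reversed with median ratio rescaling (-0.0094), quantile normalization (-0.015), estimated library weights (-0.026), without Ctrl-3 (-0.042) and without BKO-2 (-0.050), and ran from -0.050 to 0.035 with 1 library left out. Those scalings moved the median of all genes by less than 0.03. Of 152 member values, 1 crossed the threshold: with the replicate number as a block, 1 member, Acot1, passed (log2 change -0.91, adjusted p = 0.0467, limma). Over all alternatives its adjusted p ran from 0.0467 to 0.413.

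Whether the replicate numbers pair the libraries is unknown, since the labels do not say. Deviations of same-numbered libraries correlated at 0.20, -0.10 and -0.10, but differently numbered libraries were not compared, so these values cannot decide it. The count of genes higher in BKO was 18, and was 11 with no filter, 9 with a mean of at least 5 FPKM, 32 with robust empirical Bayes, 48 with estimated library weights, 8 with the muscle score as covariate and 5 to 30 with 1 library left out (leaving out BKO-1 gave 5, Ctrl-2 gave 8, Ctrl-3 and BKO-2 gave 11 each, and BKO-3 gave 30). The count of lower genes was 1, and was 6 with library weights, 2 with the replicate block and 1 to 3 with 1 library left out. The cause was not tested. Depth is unknown, and 3 libraries per group limit the precision.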
